A study of Mus musculus with 2 samples.

Results

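The promoter peaks described here are the 1067 open-chromatin intervals, at 1020 protein-coding genes, that lost most rank between control and Ngn3-OE late retinal progenitor cells (RPCs). A promoter pair is a control peak that overlapped an Ngn3-OE peak and whose summit lay within 1000 bp of a protein-coding transcript start, joined to the Ngn3-OE peak it shared most bases with. There were 21336 such pairs at 13146 genes, out of 117165 control and 124935 Ngn3-OE peaks, and 91741 control peaks overlapped an Ngn3-OE peak anywhere. Each peak was ranked by its fold enrichment, the tags at the summit over the local background, within the whole list of its own library. The falling promoter peaks were selected on the Ngn3-OE minus control rank percentile, as the lowest 5% of the pairs (5.00% of the pairs and 7.76% of the genes with a pair). Ranks, folds, tags and widths in both libraries are therefore given below as a description of what was selected and carry no test.

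The data were ATAC-seq peak lists, in which Tn5 transposase cuts DNA that is free of nucleosomes and the tags pile up at open regions. Plasmids were electroporated into the retinas of living mouse pups at postnatal day 1, for one group to overexpress Ngn3 (Neurog3) and for the other as a control, and transfected cells were marked by GFP. GFP-positive cells, which the labels call retinal progenitor cells, were sorted at day 2 after electroporation, 50000 per library. Each group had 1 library, so no difference below can be set against the spread between animals or preparations, and no p-value is given. The promoter that drove Ngn3, the mouse strain and sex, and the number of retinas pooled for a library are not given in the sources used here. The lists had 128853 control and 136761 Ngn3-OE lines, and the median peak had 9 tags at its summit in both. Neurog3 had 0 promoter peaks in control and 1 in Ngn3-OE. All 12 listed progenitor markers had a promoter peak in both libraries. Of the defining genes of other cells, 4 of 7 endothelial, 2 of 7 microglial and 1 of 6 pigment epithelial genes had a promoter peak in control, against 3, 2 and 1 in Ngn3-OE. A bulk list cannot tell fewer cells with an open promoter from less opening in each cell.

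Ngn3 is a basic helix-loop-helix transcription factor of the proneural family. These factors pair with broadly expressed E proteins, bind E-box sites and push progenitors towards neurons. Late RPCs still divide, and their progeny are mostly rods, with bipolar cells and Müller glia, while SOX factors, Notch signalling and its Hes targets are known for holding cells in the progenitor or glial state. A promoter is commonly open in many cell types at once when it is rich in CpG, and CpG-poor promoters are more often open in particular cells.

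A SOX-type motif near the summit, which the selection did not use, was more frequent at these peaks than at the remaining pairs and at the pairs that rose most. Within 100 bp of starts neither difference could be told from 0. The stretches shown here, from the reference mm10 (GRCm38) and read in the direction of the gene, carry that motif, CCATTGT or CCTTTGT on either strand, with every such site in capitals. The first 4 belong to the named genes whose motif lies clear of every annotated exon. The next 3 belong to Cnn3, Espn and Ttyh1 and were chosen after their values were seen, as further peaks that held the motif and whose tag counts had separate intervals.
Zfp36l1, chr12:80113326-80113412, minus strand: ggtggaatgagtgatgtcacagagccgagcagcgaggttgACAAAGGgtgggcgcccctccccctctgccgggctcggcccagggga
Slc38a3, chr9:107659707-107659793, minus strand: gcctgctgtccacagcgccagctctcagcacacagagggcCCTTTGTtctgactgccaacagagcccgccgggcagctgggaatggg
Neurl1b, chr17:26415136-26415222, plus strand: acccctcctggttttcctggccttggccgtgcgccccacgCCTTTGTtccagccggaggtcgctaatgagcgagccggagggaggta
Prdm1, chr10:44459370-44459456, minus strand: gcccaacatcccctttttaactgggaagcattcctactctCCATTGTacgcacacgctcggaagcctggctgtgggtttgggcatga
Cnn3, chr3:121427755-121427841, plus strand: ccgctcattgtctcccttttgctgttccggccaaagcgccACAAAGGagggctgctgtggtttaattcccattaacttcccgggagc
Espn, chr4:152132555-152132641, minus strand: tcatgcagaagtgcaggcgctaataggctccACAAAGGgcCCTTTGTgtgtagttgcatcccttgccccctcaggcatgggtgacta
Ttyh1, chr7:4123762-4123848, plus strand: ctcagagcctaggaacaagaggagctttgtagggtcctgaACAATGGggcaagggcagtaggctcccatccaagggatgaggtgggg
The motif lay on the summit itself at Zfp36l1 and Prdm1, 21 bp from it at Slc38a3, 17 bp at Espn (for the nearer of its 2 sites shown), 59 bp at Cnn3, 70 bp at Ttyh1 and 76 bp at Neurl1b.

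The falling peaks also spanned a wide range of CpG content. The windows of 101 bp around the summits of Rnf220 and Smim19, with each CG in capitals, are the lowest and the highest in CpG ratio of 5 windows that met no annotated exon, out of 20 peaks named for the largest falls or the highest control folds.
Rnf220, chr4:117497058-117497158, minus strand: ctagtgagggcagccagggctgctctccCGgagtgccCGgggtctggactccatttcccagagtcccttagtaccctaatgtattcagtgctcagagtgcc
Smim19, chr8:22477073-22477173, minus strand: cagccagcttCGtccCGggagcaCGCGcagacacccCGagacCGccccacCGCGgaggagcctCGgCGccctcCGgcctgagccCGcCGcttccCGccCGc
The Rnf220 window holds 2 CG and the Smim19 window 15, and the CpG ratios (observed over expected CpG in 201 bp around the summit) are 0.253 and 1.08.

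The falling promoter peaks were of middling strength in control and weak in Ngn3-OE. Their median rank percentile was 55.8 in control (quartiles 44.3 and 67.2) and 22.9 in Ngn3-OE (quartiles 10.6 and 35.9), where all promoter pairs had medians of 76.8 and 78.9. The median difference was −27.7 percentiles, with quartiles of −35.1 and −23.8, and that of all pairs was 0.293. In tags at the summit, the falling peaks had a median of 14 in control and 8 in Ngn3-OE, against 25 and 27 over all pairs. All 1067 had fewer tags in Ngn3-OE, as had 39.4% of all pairs, and 291 of them (27.3%) kept at most 50% of their control tags, against 1.49% of all pairs. The local background at these peaks hardly moved, from a median of 0.950 tags in control to 0.949 in Ngn3-OE. Fold enrichment had a median of 7.13 in the control library and 4.55 in the Ngn3-OE library, so the selected peaks had fewer tags over a like background.

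**Figure D1:**
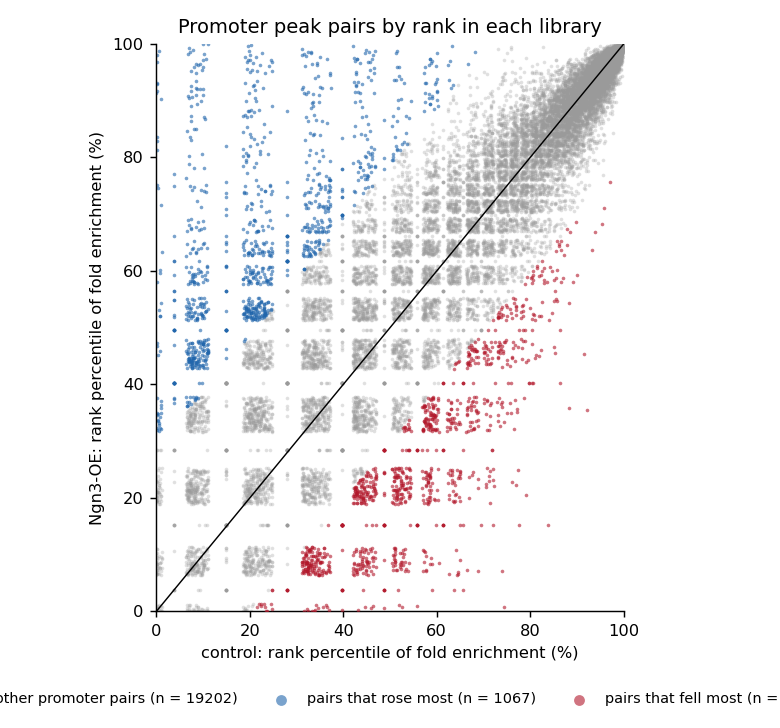
Rank percentile of fold enrichment in control (horizontal) and Ngn3-OE (vertical) for each promoter pair, 1 library per group, with the line of equal rank drawn. The 1067 pairs that fell most lie under the line, mostly at middle control ranks, and the bands are groups of weak peaks with the same small whole number of tags.

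Few of the falling peaks had been among the strongest promoters. In control, 8 of them (0.750%) were in the top 10% of the list, against 31.4% of all promoter pairs, and in Ngn3-OE 246 (23.1%) were in the lowest 10%, against 3.06%. With so few tags the ranks moved in steps. At Col5a2, a fibrillar collagen gene, 6 tags in control and 4 in Ngn3-OE stood for percentiles of 39.6 and 15.2. The edge of the selection fell between Polr2a, the largest subunit of RNA polymerase II, at −20.26 percentiles and Mrps5, a mitochondrial ribosomal protein, at −20.23. Gabra3, a GABA receptor subunit, stood just inside at −20.27 with 7 and 5 tags, and Bfsp2, a lens filament protein, just outside at −20.23 with 12 and 7 tags.

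How far the tag counts stood apart is given as a description, since the tags set the folds on which the peaks were selected. The 95% Poisson intervals of the summit tags lay apart, with Ngn3-OE lower, at 27 of the 1067 (2.53%), and at 0.192% of all promoter pairs. These 27 include Sardh, Zfp36l1, Slc38a3, Hes5, Amotl2, Tmprss5, Rnf220, Rdm1 and Timp3. At the remaining 1040 the intervals of the libraries met, and a single such peak rests on few tags.

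The largest fall in rank was at Pnp2, a purine nucleoside phosphorylase gene (chromosome 14, 50956314 to 50956469, 459 bp downstream of the start). Its peak had 13 tags in control and 3 in Ngn3-OE, and its percentile went from 74.5 to 0.824. The further Pnp2 pair, 919 bp downstream of the start, had 7 and 11 tags and gained 22.4 percentiles. Sardh, which encodes the mitochondrial sarcosine dehydrogenase, followed (chromosome 2, 27247252 to 27247486, 88 bp upstream of the start), with 20 and 4 tags and percentiles of 83.8 and 15.2. Both peaks were strong to middling in control and close to the calling limit in Ngn3-OE. Etnppl, an enzyme of phosphoethanolamine breakdown that marks astrocytes in the brain, had 10 and 3 tags at a peak 75 bp inside the gene. Thbs1, a secreted matrix glycoprotein, had 15 and 4 tags 190 bp upstream of its start. Gsta4, a glutathione transferase, had 20 and 6 tags 6 bp from its start. In each of these 3 genes the Ngn3-OE peak kept between 26.7% and 30% of the control tags.

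Zfp36l1, an RNA-binding protein that speeds mRNA decay, had 29 tags in control and 8 in Ngn3-OE at the peak with the SOX-type motif on its summit, 356 bp upstream of the start. The remaining peaks among the 12 largest falls were those of Kcnip4 (14 and 4 tags), a partner of voltage-gated potassium channels, Abcg4 (16 and 6), a sterol transporter, Smim19 (19 and 7), a small membrane protein, 1600014C23Rik (30 and 9), and Tcf12 (10 and 3). Nefm, the medium neurofilament chain, was also among them with 23 and 7 tags, yet its control peak overlapped 2 Ngn3-OE peaks. Against the stronger of these the difference at Nefm was 4.68 percentiles, a rise. Such splitting touched 58 of the 1067 peaks (5.44%, against 2.54% of all pairs), and with the partner of highest fold 27 peaks moved out of the selected range and 10 turned positive.

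The falling peaks that had been strongest in control were a different set of genes. Tmprss5, a membrane serine protease, had the highest control fold of all, 27.9, against 11.1 in Ngn3-OE (chromosome 9, 49102441 to 49102795). Its summit tags were 48 and 13, and its percentiles 97.2 and 75.6, so it was still a strong peak after the fall. Slc38a3, a glutamine transporter of glial cells, had 49 and 12 tags at the peak with the motif shown above (chromosome 9, 107659610 to 107659862), while its 2 further promoter pairs had 11 and 26 and 41 and 46. Rnf220, a ubiquitin ligase, had 40 and 12 tags, and Rdm1, a DNA repair protein, 40 and 13. Adar, the RNA adenosine deaminase, had 29 and 11 tags 1 bp from a start. These 5 peaks kept between 24.5% and 37.9% of their control tags. Pclo, a scaffold of the presynaptic zone, Dzip1, a cilium protein, and Rnps1, a splicing factor, also belong to the 8 strongest, with 80 and 31, 70 and 28, and 38 and 9 tags. All 3 overlapped 2 Ngn3-OE peaks, and with the partner of highest fold their differences were −0.463, −3.47 and 2.63 percentiles.

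Most genes with a falling peak also had a promoter pair outside the selection. Of the 1020 genes, 771 (75.6%) had at least 1 such further pair, where 45.2% of all genes with a pair had 2 or more. A gene with several pairs has more that could be selected, so these shares are not like for like. These 1305 further pairs had a median difference of 1.88 percentiles (quartiles −2.05 and 11.2), 832 of them (63.8%) gained rank and 85 (6.51%) were among the 5% that rose most. Over all promoter pairs outside the selection, from which the falling ones are likewise removed, these shares were 56.7% and 5.26%, and over all pairs 53.9% and 5.00%. At 583 genes a further pair was stronger in control than the falling one. Of the 75 genes named by rule, 58 had further pairs, 106 in all, of which 71 (67.0%) gained rank and 39 had fewer tags in Ngn3-OE. At E2f8, a repressor of the cell cycle transcription program, the peak 113 bp upstream of a start had 25 tags in control and 11 in Ngn3-OE, beside a second peak 54 bp upstream of a start with 136 and 105 tags and percentiles of 99.8 and 99.5. At Mob1a, a Hippo pathway adaptor, the falling peak had 31 and 18 tags beside a second with 80 and 88. The remaining 249 genes had falling promoter peaks only.

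At some genes several promoter peaks fell, and at others falling and rising peaks stood side by side. Of the 1020 genes, 43 had 2 or more falling peaks, 90 peaks in all, and 4 genes had 3 or more. Tcf12, an E protein with which proneural factors pair, had 3. Their summit tags were 10 and 3, 12 and 5, and 12 and 8 in control and Ngn3-OE, while a further Tcf12 pair next to a start had 13 and 17. Pdk4, a kinase that switches off pyruvate dehydrogenase, had 2 (11 and 5 tags, 10 and 4 tags), and Dsc2, a desmosomal cadherin, had 2 (8 and 3, 6 and 4). Kctd1 had 3, with 33 and 20, 16 and 11, and 15 and 8 tags. At 2900026A02Rik both falling peaks kept fewer than 50% of the control tags, 21 and 8 and 9 and 4.

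The genes were then grouped by 19 lists of cell type markers, pathways and complexes. Over all lists together, 63 of 504 genes with a promoter pair had a falling peak, or 12.5% (95% CI 9.89 to 15.7), against 7.76% of all genes, and 52 (10.3%, 95% CI 7.96 to 13.3) had a peak among the 5% of pairs that rose most, against 7.81% of all genes. The rising pairs are joined less cleanly than the falling ones. An Ngn3-OE peak that overlaps several control peaks is the partner of 400 of the 1067 rising pairs (37.5%), and 61.8% of rising pairs have both summits within 100 bp, against 92.9% of the falling peaks. Without pairs that share their partner, 37 of 489 listed genes (7.57%) had a strong rise, against 5.11% of all genes. Listed genes have more promoter pairs each, and per pair the share was 70 of 897 (7.80%, against 5.00% of all pairs). The median difference over the listed pairs was 0.234 percentiles, close to the 0.293 of all pairs. The lists were chosen with earlier results of these data known, so their counts are descriptions. They also share genes, so they are not separate counts. Among the falling genes, Hes5 stands in the Müller glia, progenitor factor and Notch lists. Pax6 stands in both progenitor lists and the neuron list, and Prox1 in the progenitor factor and neuron lists. Tead1 is in the progenitor factor and Hippo lists, and Tcf7l1 in the progenitor factor and Wnt lists.

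Genes of retinal neurons other than photoreceptors gave the highest share. Of 41 ganglion, amacrine, horizontal and bipolar cell genes with a promoter pair, 11 had a falling peak (26.8%, 95% CI 15.7 to 41.9) and 5 had a peak among the strongest rises. Per pair these were 12 of 68 (17.6%), and the median difference of the list was −2.32 percentiles. Tfap2c, an AP-2 factor of amacrine cells, had 18 tags in control and 10 in Ngn3-OE, and Tfap2a 14 and 9. Ptf1a, the helix-loop-helix factor that starts amacrine and horizontal fates, had 24 and 17 tags at a peak 59 bp upstream of its start. Prox1, a horizontal cell and progenitor factor, had 22 and 13. Irx6, a homeobox factor of bipolar cells, had 23 and 9 tags, Irx5 24 and 17, and Sebox 8 and 4. Gad1, the enzyme that makes GABA, had 15 and 9 tags and Slc6a9, a glycine transporter, 13 and 9. Among the 11, the tag intervals lay apart at Nefm alone, whose peak is split and turns to a rise of 4.68 percentiles against its stronger partner. The count of this list was 7 with promoters of 500 bp, with an overlap of 50% of both peaks and with at least 20 control tags.

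Of the Müller glia genes, 8 of 36 had a falling peak (22.2%, 95% CI 11.7 to 38.1), against 2 with a peak among the strongest rises, and 10 of 70 pairs (14.3%). The median difference over the pairs of the list, 0.249 percentiles, lay near the 0.293 of all pairs. Hes5, the Notch target that represses proneural genes, had the largest loss of tags among them, 43 in control and 16 in Ngn3-OE (chromosome 4, 154960585 to 154960835, 208 bp upstream of the start). Its percentile went from 64.1 to 20.6, and a second Hes5 peak 15 bp from the start, outside the selection, had 27 and 16 tags and lost 15.1 percentiles. Both control peaks are joined to the same Ngn3-OE peak, so its 16 tags stand in both pairs and the pairs are not separate measurements. Of the 1067 falling peaks, 21 (1.97%) have such a partner that overlaps several control peaks, against 6.28% of all pairs and 37.5% of the rising pairs. Timp3, an inhibitor of matrix proteases, had 37 and 15 tags, with intervals apart. Apoe, the lipid carrier made by glia, had 2 falling peaks, with 19 and 8 and 19 and 11 tags, and a further Apoe pair had 17 and 22. Nfix, a nuclear factor I gene of late progenitors and glia, also had 2, with 14 and 7 and 7 and 6 tags, while further Nfix pairs ran from a loss of 12.2 to a gain of 25.0 percentiles. Ptn, a secreted growth factor, had 10 and 5 tags, Crym 9 and 5, Cd9 13 and 7, and Kcnj10, the potassium channel of Müller cells, 11 and 6.

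**Figure D2:**
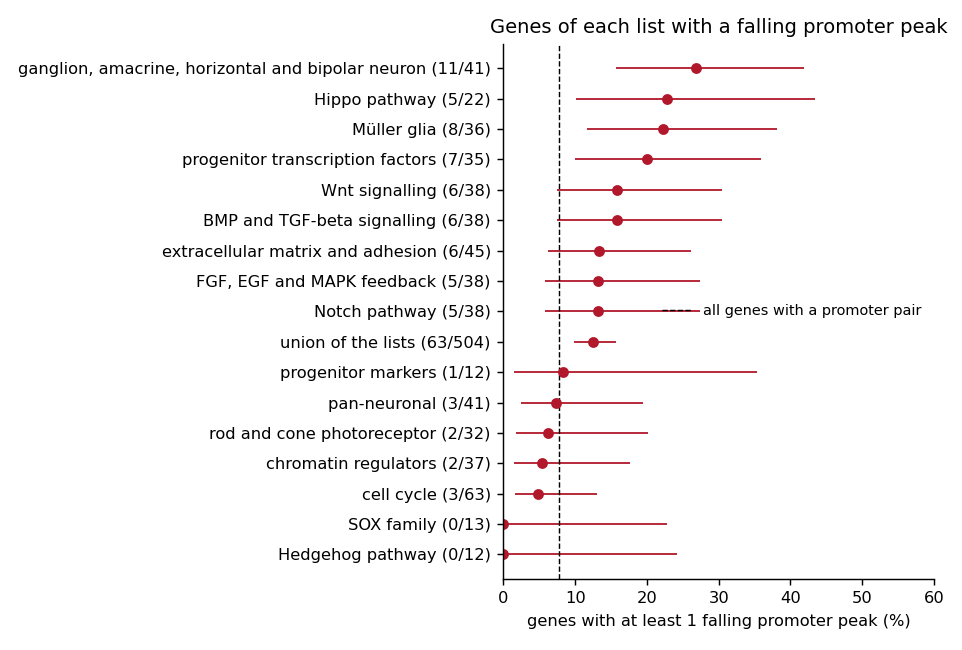
Share of the genes of each list that had at least 1 falling promoter peak, for lists with 10 or more genes with a promoter pair, with 95% Wilson intervals and the 7.76% of all genes as a dashed line. The ganglion, amacrine, horizontal and bipolar list, the Hippo pathway, Müller glia and the progenitor transcription factors have intervals above the line, and the Hedgehog and SOX family lists have no such gene. Lists share some genes, so their shares are not independent.

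Of 35 transcription factors of progenitors, 7 had a falling peak (20%, 95% CI 10.0 to 35.9) and 6 a peak among the strongest rises, with 9 of 60 pairs (15%) and a median difference of −1.46 percentiles. Of these 7, Hes5, Pax6, Prox1, Tead1 and Tcf7l1 are also counted in other lists. Pax6, the eye field homeobox factor, had 39 tags in control and 19 in Ngn3-OE at a peak 69 bp upstream of one start, and 28 and 15 at a peak 101 bp upstream of another. A further Pax6 pair, 575 bp upstream of a start, went the other way with 18 and 29 tags and a gain of 40.7 percentiles. Otx1, a homeobox factor of the anterior neural tissue, had 2 falling peaks with 16 and 7 and 20 and 10 tags. Tcf7l1, a repressor at Wnt targets, had 25 and 12 tags 49 bp upstream of its start. Of its further pairs, the strongest had 52 and 36 tags and lost 5.36 percentiles, and the weaker one had 10 and 18. Zic1, a zinc finger factor, had 13 and 9 tags. Among the 12 genes of the shorter list of progenitor markers, Pax6 was the only one with a falling peak (8.33%, 95% CI 1.49 to 35.4). That is near the 7.76% of all genes. Strong rises were at 3 of the 12 (25%, 95% CI 8.89 to 53.2, against 7.81% of all genes).

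Photoreceptor genes were at the background. Of 32 rod and cone genes, 2 had a falling peak (6.25%) and 7 had a peak among the strongest rises (21.9%, 95% CI 11.02 to 38.76, against 7.81% of all genes). All 7 of these genes stayed when pairs that share their Ngn3-OE partner were left out, where the share of all genes was 5.11%. At Otx2, the homeobox factor that starts photoreceptor fate, 1 peak 278 bp upstream of a start had 14 tags in control and 9 in Ngn3-OE. The 5 further Otx2 pairs all gained rank, by 14.3 to 46.9 percentiles, and the one 106 bp upstream of a start had 16 and 26 tags. Prdm1, which keeps rods from becoming bipolar cells, had 17 and 15 tags at the peak with the SOX-type motif shown above, a loss of tags that was small beside its loss of rank, and its main promoter peak had 63 and 82 tags. Pan-neuronal genes were at the background as well, with 3 of 41 (7.32%). Map2, a dendritic microtubule protein, had 11 and 6 tags at 1 of its promoters and 5 further pairs, of which 4 had differences between −0.364 and 6.43 percentiles and 1 a difference of −19.6. Nlgn1, a synaptic adhesion protein, had 2 falling peaks, with 27 and 13 and 14 and 8 tags, and Celf5, an RNA-binding protein of neurons, had 9 and 5. Further Nlgn1 pairs ran from a loss of 20.0 percentiles (25 and 17 tags) to a gain of 48.9 (9 and 20 tags).

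Signalling lists followed in order of their shares. In the Hippo pathway, which restrains growth through Lats kinases and the Tead factors, 5 of 22 genes had a falling peak (22.7%, 95% CI 10.1 to 43.4), and 5 of 43 pairs (11.6%), while the median difference of the list was 1.31 percentiles. A strong rise was found at 3 of the 22 genes (13.6%, 95% CI 4.75 to 33.3, against 7.81% of all genes). Amotl2, which holds the co-activator Yap1 at junctions, had 44 tags in control and 20 in Ngn3-OE, with intervals apart, at a peak 732 bp inside the gene, while the peak at its start had 44 and 46. Lats2 had 10 and 6 tags, Wwtr1, the Taz co-activator, 20 and 11, and Tead1 13 and 9. In the next 5 lists the interval of the share includes the 7.76% of all genes. In Wnt signalling 6 of 38 genes had a falling peak (15.8%, 95% CI 7.44 to 30.4) and 1 a strong rise. Ror2, a receptor of Wnt5a, had 14 and 5 tags and Vangl2, a planar polarity protein, 22 and 10, and both peaks held the SOX-type motif. Lef1, a nuclear partner of beta-catenin, had 20 and 9 tags, Ctnnb1, beta-catenin itself, 12 and 6, and Wnt5a, a ligand, 12 and 8. Further Lef1 pairs lost 6.34 percentiles and gained 20.4. The main Ctnnb1 promoter peak had 24 and 25 tags.

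Among 38 BMP and TGF-beta genes, 6 had a falling peak (15.8%, 95% CI 7.44 to 30.4), and 6 had one among the strongest rises. The median difference of this list was 1.62 percentiles. Gdf11, a ligand that limits ganglion cell number, had 27 tags in control and 14 in Ngn3-OE. The antagonist Chrd had 12 and 7, the latent binding protein Ltbp1 22 and 11, the receptor Bmpr1a 14 and 10, and Smad5 and the inhibitory Smad6 had 13 and 9 and 19 and 11. A second Smad5 pair, 500 bp upstream of a start, had 10 and 26 tags, so peaks of this gene went both ways. In the Notch pathway 5 of 38 genes had a falling peak (13.2%, 95% CI 5.75 to 27.3) and 2 a strong rise. Beside Hes5 these were the co-activator Maml3 (16 and 8 tags), the ubiquitin ligase Neurl1b (7 and 5), the ligand Dner (21 and 15) and the receptor Notch3, whose 2 falling peaks had 12 and 7 tags each.

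Of 38 genes of FGF, EGF and MAPK feedback, 5 had a falling peak (13.2%, 95% CI 5.75 to 27.3) and 7 a strong rise. The feedback inhibitors Spred2 and Spry4 had 34 and 22 and 26 and 15 tags. Among the receptors, Met had 23 and 12, Erbb4 12 and 9, and Erbb3 8 and 5 and 13 and 8 at its 2 falling peaks. A further Erbb3 pair gained 34.6 percentiles. In the matrix and adhesion list 6 of 45 genes had a falling peak (13.3%, 95% CI 6.26 to 26.2) and 2 a strong rise. Cd44, the hyaluronan receptor, had 19 and 8 tags, Gpc4, a proteoglycan, 12 and 7, Col18a1 12 and 7, Col9a1 10 and 6, and Lamb2, a laminin chain of the retina, 9 and 5.

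Cell cycle genes gave 3 of 63 (4.76%, 95% CI 1.63 to 13.1) and 3 of 90 pairs (3.33%), and that interval includes 7.76%. They were E2f8, Ccnd2, a cyclin of the first gap phase, with 17 tags in control and 10 in Ngn3-OE, and Rbl1, a pocket protein, with 18 and 9. Chromatin regulators gave 2 of 37 (5.41%). Chd7, a remodeller of neural progenitors, had 13 and 10 tags and Chd4, the NuRD remodeller, 24 and 18, while 2 of the 4 further Chd7 pairs gained 26.0 and 28.0 percentiles and the 3 further Chd4 pairs gained 11.7, 13.7 and 25.7. The SOX family itself had 0 of 13 genes (95% CI 0 to 22.8) and the Hedgehog pathway 0 of 12, each with 4 genes among the strongest rises (30.8%, 95% CI 12.7 to 57.6, and 33.3%, 95% CI 13.8 to 60.9, against 7.81% of all genes). Without pairs that share their partner, these were 4 of 13 SOX genes and 2 of 10 Hedgehog genes. Several of these counts are sensitive to the settings. Among pairs with at least 20 control tags, where fewer genes could be counted, Müller glia had 5 in place of 8 genes, the Notch pathway 3 in place of 5, matrix and adhesion 1 in place of 6, the cell cycle 1 in place of 3 and photoreceptors 0 in place of 2. Counts also went up there, with 2 in place of 0 Hedgehog genes, 1 in place of 0 SOX genes and 2 in place of 1 progenitor marker. An overlap of 50% of both peaks also gave 1 Hedgehog and 1 SOX gene. FGF, EGF and MAPK feedback had 3 in place of 5 with promoters of 500 bp and with an overlap of 50% of both peaks. The endothelial, microglial and pigment epithelial lists had 0 of 3, 0 of 1 and 0 of 1 genes.

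Where a peak lay relative to the start and how much CpG it held were not used in the selection. Falling peaks were farther from starts than promoter peaks in general. Their median distance was 262 bp, against 114 bp over all pairs, and 29.8% lay within 100 bp (95% CI 27.1 to 32.6), against 48.3% of the other pairs. They lay downstream of the start more often than upstream, 53.9% against 45.8%, where all pairs had 41.9% and 57.7%. The pairs that rose most leaned further downstream, with 62.4% (95% CI 59.5 to 65.3) against 37.5%. By distance, 3.15% of the pairs within 100 bp of a start fell, 4.65% of those at 101 to 250 bp, 7.31% at 251 to 500 bp and 8.34% at 501 to 1000 bp. The pairs that rose most were likewise far from starts, with 21.1% within 100 bp (95% CI 18.7 to 23.6) and a median distance of 272 bp. Both tails also had lower control percentiles than promoter pairs at large, with medians of 55.8 and 20.7 against 76.8, and the part of peak strength in these shares was not tested.

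CpG content gave the same picture. CpG-poor windows, with a ratio under 0.6, made up 41.1% of the falling peaks (95% CI 38.2 to 44.1), 27.2% of the other pairs and 38.1% of the pairs that rose most. The median ratio was 0.673 for the falling peaks, 0.692 for the rising ones and 0.768 for all pairs, and the median GC content was 63.2%, 64.7% and 65.2%. Tmprss5, Sardh, Slc38a3, Etnppl and Col9a1 were among the CpG-poor falling promoters, with ratios of 0.0636, 0.161, 0.267, 0.404 and 0.0690. Hes5, the stronger Pax6 peak and Gsta4 were CpG-rich at 0.926, 0.884 and 0.867.

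The SOX-type motif was counted in the 201 bp around each control summit, on both strands. It was found at 75 of the 1067 falling peaks (7.03%, 95% CI 5.64 to 8.72), at 3.78% of the other pairs, at 3.94% of all pairs and at 3.94% of the pairs that rose most. The falling peaks exceeded the other pairs by 3.25 percentage points (95% CI 1.84 to 4.96) and the rising pairs by 3.09 points (95% CI 1.16 to 5.06). Both intervals lie above 0. Distance from the start, which differs between the sets, was then held within classes. Within 100 bp of a start the excess over the other pairs was 0.331 points and could not be told from 0 (95% CI −1.23 to 2.98), and beyond 100 bp it was 4.16 points (95% CI 2.32 to 6.41). Against the rising pairs the differences were −1.87 points (95% CI −5.92 to 1.59) and 4.98 points (95% CI 2.66 to 7.44). The difference between the classes was not tested, and the intervals overlap for the other pairs. Without pairs that share their Ngn3-OE partner, the excess over the rising pairs was 3.08 points (95% CI 0.843 to 5.18). With promoters of 500 bp the excess over the other pairs was 1.77 points (95% CI 0.448 to 3.46). Among shared distal pairs within 50 kb the motif stood at 8.99% near genes with a falling promoter peak and at 8.34% near the other genes. Of the falling peaks, 30 held CCATTGT and 49 CCTTTGT, and 8 held 2 or more sites. A match in the letters is a description of the sequence and not of a bound site, and a SOX pattern in these libraries was already known when the motif was chosen.

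Of the 27 falling peaks whose tag intervals lay apart, 7 held the motif, as did 8 of the 41 such pairs among all promoter pairs. These peaks are picked by the same tags as the selection, so the counts carry no test. The 7 were Zfp36l1, Slc38a3, Hes5, Cnn3, Espn, Ttyh1 and Sorbs3, of which the last 4 were named after their values were seen. Cnn3, an actin-binding protein, had 51 tags in control and 19 in Ngn3-OE, and Ttyh1, a membrane protein of neural progenitors and glia, 51 and 17. Espn, an actin-bundling protein, had 63 and 18, and Sorbs3, the adhesion protein vinexin, had 35 and 12 at 1 of 2 falling peaks. These peaks lay 614 to 994 bp from the start at all 4 genes.

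Of the classes by CpG content and motif, CpG-poor windows with the motif had the highest share of pairs that fell. Of 325 CpG-poor pairs with the motif, 43 fell (13.2%, 95% CI 9.97 to 17.3), against 7.03% of CpG-poor pairs without it. Of 516 CpG-rich pairs with the motif, 32 fell (6.20%, 95% CI 4.43 to 8.62), against 4.01% without. The shares that rose most in the same classes were 4.92%, 6.92%, 5.04% and 4.27%. As an excess over the other pairs, the motif stood at 4.69 points (95% CI 2.17 to 7.88) in CpG-poor windows. In CpG-rich windows it was 1.81 points (95% CI 0.320 to 3.84), and these intervals overlap. The difference between the CpG classes was not tested, and distance from the start was not held within them. Slc38a3, Espn and Ttyh1 are CpG-poor pairs with the motif, at ratios of 0.267, 0.240 and 0.0657, and Zfp36l1 and Hes5 CpG-rich ones.

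**Figure D3:**
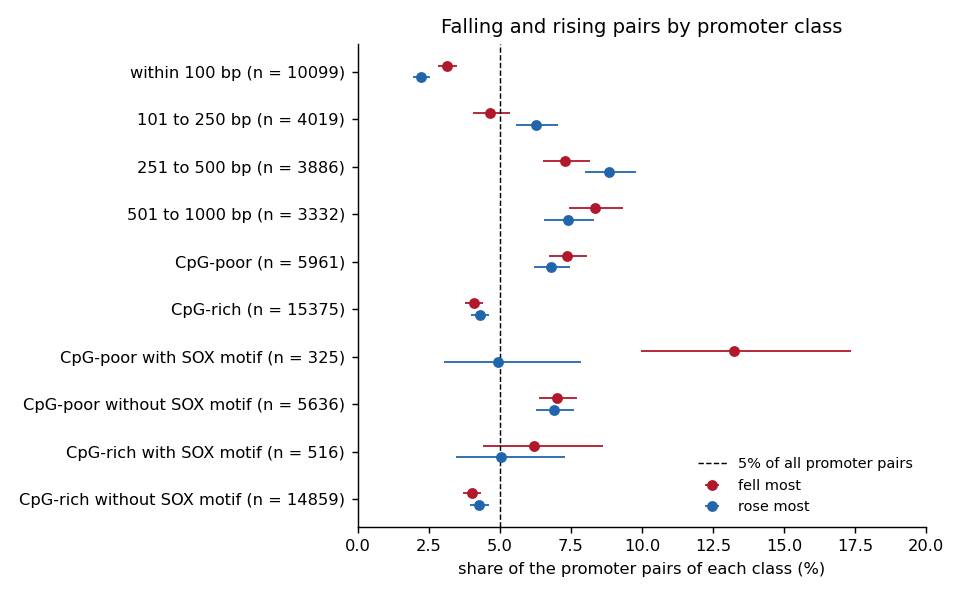
Share of the promoter pairs in each class that were among the 1067 that fell most (red) or the 1067 that rose most (blue), with 95% Wilson intervals. The falling share rises with distance throughout, the rising share is highest at 251 to 500 bp, both are higher in CpG-poor than in CpG-rich windows, and in CpG-poor windows with a SOX-type motif 13.2% fell and 4.92% rose.

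The longer E-box that the study associates with Ngn3 was more frequent at the rising pairs than at the falling ones. It was found at 6 falling peaks (0.562%), 0.849% of the other pairs, 0.834% of all pairs and 1.59% of the pairs that rose most. The difference of the falling peaks from the other pairs, −0.286 points (95% CI −0.620 to 0.383), could not be told from 0 at this depth, and that from the rising pairs was −1.03 points (95% CI −2.02 to −0.142). Split by distance, the difference from the rising pairs could not be told from 0 in either class. It was −0.862 points (95% CI −2.05 to 0.289) beyond 100 bp of a start and −1.33 points (95% CI −3.85 to 0.149) within 100 bp. Its core CATCTG, which is part of the longer E-box, gave 8.53%, 8.40% and 11.7% in falling, other and rising pairs, and 8.41% of all pairs. The Chd7 peak was the single named one with the study's E-box.

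The other motifs were searched on both strands of the same windows. For them the contrast with the other pairs was not split by distance from the start. Since many rising pairs share their Ngn3-OE partner, the contrasts with rising pairs were repeated without such pairs, on 1046 falling and 667 rising pairs. The longer E-box then differed by −1.83 points (95% CI −3.32 to −0.688) and GGATTA by −6.16 points (95% CI −8.999 to −3.56). The contrasts for TEAD, 1.68 points (95% CI −0.925 to 4.11), and NRF1, 0.782 points (95% CI −0.761 to 2.16), could no longer be told from 0, and that for SP and KLF factors became 6.05 points (95% CI 1.25 to 10.8). TTTGAA, the cell cycle homology region, was at 6.37% of falling peaks, 4.61% of other pairs and 2.91% of rising pairs (4.70% of all). It exceeded the other pairs by 1.76 points (95% CI 0.412 to 3.41) and the rising pairs by 3.47 points (95% CI 1.69 to 5.30). The AP-1 motif, TGACTCA or TGAGTCA, was at 3.00%, 1.90% and 1.50% (1.95% of all), an excess of 1.10 points over the other pairs (95% CI 0.211 to 2.32) and of 1.50 over the rising pairs (95% CI 0.234 to 2.83). Split by distance, the AP-1 excess over the rising pairs could not be told from 0. It was 1.27 points (95% CI −0.212 to 2.89) beyond 100 bp of a start and 2.26 points (95% CI −0.446 to 4.88) within 100 bp. For TTTGAA the interval stayed above 0 in both distance classes. TAATTA, the core of LHX-type homeobox factors, was at 3.09%, 1.18% and 1.78% (1.28% of all). Its excess over the other pairs was 1.91 points (95% CI 1.01 to 3.14), and that over the rising pairs, 1.31 points, had an interval from −0.00928 to 2.69.

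GGATTA, bound by Otx2 and Crx, was at 4.69% of falling and 4.81% of other pairs but at 8.34% of the rising ones (4.80% of all), and falling minus rising pairs was −3.66 points (95% CI −5.78 to −1.57). Beyond 100 bp of a start this difference was −3.46 points (95% CI −5.97 to −0.951). Within 100 bp it was −3.65 points and could not be told from 0 (95% CI −8.05 to 0.106). TGACGTCA, the cyclic AMP response element, was at 1.97% of falling, 2.32% of other and 0.281% of rising pairs (491 of all 21336 pairs), and exceeded the rising pairs by 1.69 points (95% CI 0.819 to 2.73). TATAAA was at 3.66% of falling and 2.41% of other pairs (2.47% of all), an excess of 1.25 points (95% CI 0.253 to 2.57), and that over the rising pairs, 1.22 points, had an interval from −0.256 to 2.73. GGAATG of TEAD factors was at 8.06% and 6.72% (6.79% of all), and that excess of 1.34 points could not be told from 0 (95% CI −0.193 to 3.15), while the excess over the rising pairs was 2.53 points (95% CI 0.391 to 4.69).

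Motifs of broadly active promoters were scarce in both tails. CCGGAAG of ETS factors was at 4.03% of falling peaks, 11.2% of other pairs and 3.56% of rising pairs (10.9% of all). CCAAT of NFY was at 18.2%, 26.4% and 15.5% (25.9% of all), GGGCGG of SP and KLF factors at 45.4%, 56.5% and 44.5% (55.9% of all) and AAGATGGC of YY1 at 0.843%, 2.78% and 1.03% (2.68% of all). For these 4 motifs the difference between all falling and rising pairs could not be told from 0, with intervals of −1.18 to 2.13, −0.459 to 5.89, −3.37 to 5.05 and −1.09 to 0.691 points in the same order. NRF1's motif was at 2.62%, 5.91% and 1.41% (5.75% of all), and here falling exceeded rising pairs by 1.22 points (95% CI 0.0121 to 2.49). CACGCG or CACGTG, the letters of Hes-type repressors, were at 15.7%, 20.2% and 16.0% (20.0% of all). The shares at falling and other pairs were 7.59% and 6.68% for TTGGCA of NFI factors (6.72% of all), 3.47% and 3.64% for GTGGGAA of RBPJ (3.63% of all), 2.72% and 2.81% for GTTGCCA of RFX factors (2.81% of all), and 0.843% and 0.854% for the E2F motif (0.853% of all). None of those 4 differences could be told from 0.

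**Figure D4:**
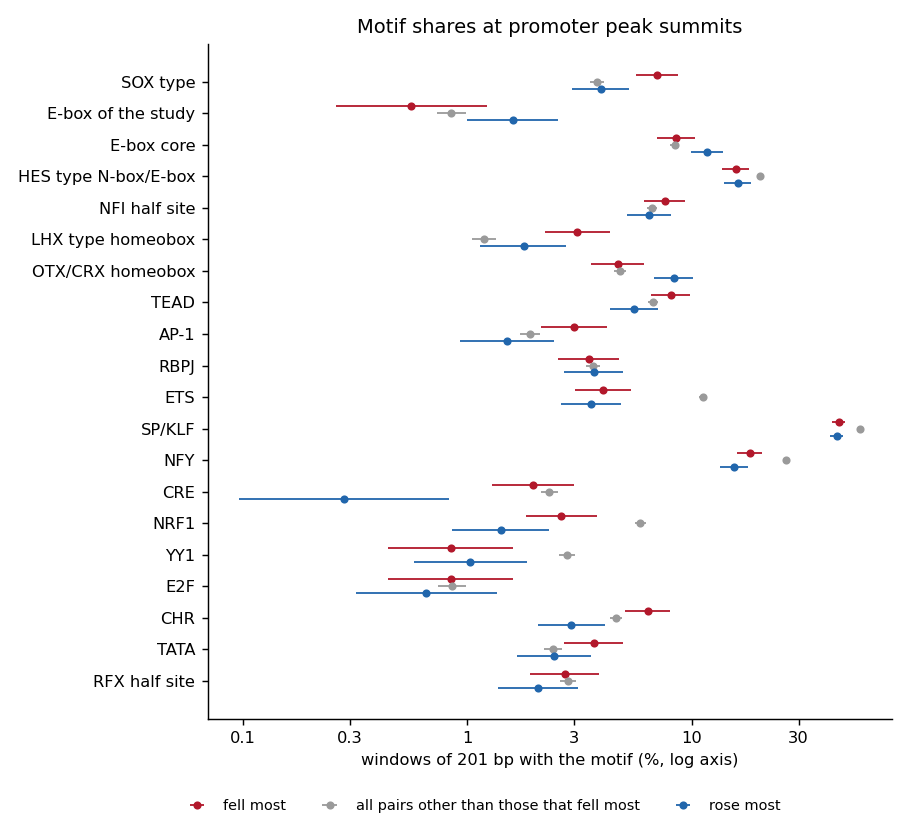
Share of windows of 201 bp around control summits that hold each of 20 motifs, on a log axis, in the pairs that fell most (red), in all pairs other than those (grey) and in the pairs that rose most (blue), with 95% Wilson intervals. The SOX-type, LHX-type, AP-1 and CHR motifs are highest in red, and ETS, SP/KLF, NFY, NRF1 and YY1 are lower in both red and blue than in grey.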

How the data were processed

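ATAC-seq was performed on GFP-positive cells sorted from control and Ngn3-OE retinas, 1 library per group, with groups taken from the sample titles. The authors trimmed reads with Trimmomatic, aligned them to mm10 with Bowtie2, removed duplicates with Picard, mitochondrial reads with SAMtools and blacklisted regions with bedtools, kept fragments up to 120 bp, shifted cut ends with deepTools and called peaks in each library with MACS2 at a q limit of 0.05. The deposited lists give a fold enrichment at the summit, calculated by the authors' caller as tags over local background with 1 added to both, the −log10 q and −log10 p of the peak, and an integer score, which was not used. Folds were not normalised between libraries, so ranks within each list were compared. Keeping only short fragments leaves out nucleosomal DNA, so the lists describe nucleosome-free promoters.

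Lines of 1 interval were merged, keeping the highest fold, on 21 chromosomes, which left out 159 control and 150 Ngn3-OE lines. Starts of protein-coding transcripts were 41469 positions of the GENCODE M21 basic set, on GRCm38, the same build as mm10, and each summit took the nearest. Of the falling peaks, 67 (6.28%, against 9.00% of all pairs) lay within 1000 bp of starts of 2 or more genes, so the gene named is then 1 of several. Tags and background were solved from the deposited fold and −log10 p, and whole tags within 0.005 were found for 100% of peaks. The recovery was checked on simulated peaks. Tags are not normalised for depth, and total reads are not given in the lists. The lowest background, 0.261 tags in control and 0.257 in Ngn3-OE, was alike.

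No test between the groups was made, since each had 1 library. Shares have 95% Wilson intervals, their differences Newcombe intervals and tags exact Poisson intervals. These intervals cover counting error only and treat peaks as independent, which neighbours are not. Members, gene lists and motifs were chosen with earlier results of these data known. Genes were named as the 12 lowest differences, the 8 highest control folds, up to 4 genes of each list (all where a list had at most 6), up to 6 genes with several falling peaks, and those at the edge of the selection. Further genes of the neuron, Müller glia and progenitor lists, and Cnn3, Espn, Ttyh1 and Sorbs3, were named after their values were seen. Python 3.11.15, numpy 2.4.6, pandas 2.3.3, scipy 1.17.1 and pysam 0.24.0 were used. Alternatives covered the ranking, pairing, promoter width, tail, motif window and letters, annotation, tag minimum, distance from the start and shared partners. Differential regions and RNA-seq data were not used here.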

Additional observations from a re-analysis of the deposited data

How the results depend on the processing

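The main limits are 1 library per group, low tag counts, split peaks and lists and motifs chosen with earlier results known. No paired analysis was possible because each group had 1 library. Leaving out the share of peaks with fewer tags, which the selection fixes, 85 of 102 recounts of the main results stayed within the spread or 1.5 times the count given. The SOX-type excess had an interval above 0 under 22 of 23 settings, and its range was 0.331 to 4.82 points. The exception was 0.331 points within 100 bp of a start. It moved to 1.77 points with promoters of 500 bp and to 1.81 in CpG-rich windows alone. The E-box difference had an interval that included 0 under all 23 settings. It was −0.698 points in CpG-poor windows and reversed to 0.0663 with an overlap of 50% of both peaks, to 0.0927 with at least 20 control tags and to 0.127 with the core CATCTG.

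The share of falling peaks within 100 bp of a start was 41.2% with promoters of 500 bp, 41.7% when ranked by the log2 ratio of folds and 37.6% with at least 20 control tags. The median CpG ratio was 0.726 with promoters of 500 bp, 0.694 with at least 10 tags and 0.730 with at least 20. The lowest 2.5% of pairs held 533 of the falling peaks and 35 listed genes, and the lowest 10% held 114 listed genes, with fewer tags in Ngn3-OE at 99.6% of its peaks. Among pairs with at least 20 control tags, 270 of the 627 chosen were among the 1067. Ranking by −log10 q kept 957 and by the log2 ratio 755 of the 1067. With the partner of highest fold, Nefm reversed to 4.68 and Rnps1 to 2.63 percentiles, since each overlapped 2 Ngn3-OE peaks. The settings for tag minimum, full annotation, distance from the start and shared partners were chosen after seeing the data. Where no value shows it, the cause of a move was not tested.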

Other observations

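Distal peaks near the same genes were counted after the promoter results were known. Within 50 kb of a start and over 1000 bp from any, the 1020 genes with a falling promoter peak had 3347 shared distal pairs, with a median difference of 2.04 percentiles, and the other 12126 genes with a promoter pair had 29124, with a median of 2.13. A loss of at least 20 percentiles was found at 12.5% and 11.2% of these pairs. Peaks of 1 library only were more numerous near genes with a falling promoter peak in both lists, with 0.998 control-only and 1.36 Ngn3-OE-only distal peaks per gene against 0.703 and 0.977. Whether the number of promoter pairs per gene accounts for this was not tested.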
